A study of Homo sapiens with 4 samples.

Results

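The vascular endothelial growth factor (VEGF) system was followed through human hematopoietic differentiation in 7 genes. They were the ligand genes VEGFA, VEGFB, VEGFC and PGF and the receptor genes KDR, FLT1 and FLT4. The members were the rows of the gene-level FPKM table (fragments per kilobase of transcript, scaled to mapped fragments) whose symbol is one of these names, and each was found once among 58274 gene identifiers. With a filter of at least 1 FPKM in at least 1 library, 17137 genes were kept, and 6 of the 7 members were among them. VEGFC was the member that did not pass.

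The study asked how gene expression switches as pluripotent cells become blood progenitors in a chemically defined culture. The line was BC1, human induced pluripotent stem cells, and it was sequenced undifferentiated and as 3 populations sorted from its differentiating cultures. These were APLNR+ mesoderm cells of day 2, CD31+CD34+ hemogenic endothelial progenitors (HEPs) of day 5 and CD43+ hematopoietic progenitor cells (HPCs) of day 8. Each population gave 1 library, so no difference has a replicate check and no test between populations was made. Activin A and BMP4 were given for the first 2 days, and 40 ng/ml VEGF with 50 ng/ml bFGF for the next 6 days. The CD31+CD34+ and CD43+ cells therefore came from medium that held VEGF, and its effect cannot be told apart from that of the stage. All 4 populations are of 1 line in 1 culture system, and the labels name no genetic change in it.

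VEGFA is the main growth factor for vascular endothelium and acts through the tyrosine kinase receptor KDR (VEGFR2), while FLT1 (VEGFR1) binds VEGFA, VEGFB and PGF and can hold ligand back from KDR. FLT4 (VEGFR3) is the receptor of VEGFC and VEGFD and is best known from lymphatic endothelium, although embryonic blood vessels also carry it. In the embryo KDR marks the mesoderm from which both endothelium and blood arise, and mice that lack it form neither properly.

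The receptors and the ligands peaked in different populations. The 3 receptor transcripts were all highest in the CD31+CD34+ HEPs, from 8.13-fold (KDR) to 39.4-fold (FLT4) above the APLNR+ cells, and all 3 were much lower again in the CD43+ HPCs. VEGFA was instead highest in the CD43+ HPCs, at 4.07-fold the level of the HEPs. PGF and VEGFB were highest in APLNR+ mesoderm, and VEGFC was close to the limit of detection throughout. FPKM is per transcript length, so levels may be set side by side between genes within a library. Comparisons between libraries also depend on how these are scaled, which is examined at the end.

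The sequences before the start of KDR and FLT1 are shown because these receptor genes rose together at the HEP stage and because ETS family genes, named further on, are established regulators of endothelial genes. Both were copied from RefSeq promoter windows (GRCh38.p14), which had an entry for 5 of the 7 members. VEGFA and FLT4 had none. Each is the 250 bases before the annotated start on the gene's own minus strand, at chr4:55125596-55125845 for KDR and chr13:28495129-28495378 for FLT1. Capitals mark the ETS core letters GGAA, or TTCC where the core lies on the other strand.
KDR: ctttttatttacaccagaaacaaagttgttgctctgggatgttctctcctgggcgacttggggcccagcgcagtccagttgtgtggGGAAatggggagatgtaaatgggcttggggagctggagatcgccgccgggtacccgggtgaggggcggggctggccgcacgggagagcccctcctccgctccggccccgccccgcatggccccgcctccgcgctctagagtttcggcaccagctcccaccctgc
FLT1: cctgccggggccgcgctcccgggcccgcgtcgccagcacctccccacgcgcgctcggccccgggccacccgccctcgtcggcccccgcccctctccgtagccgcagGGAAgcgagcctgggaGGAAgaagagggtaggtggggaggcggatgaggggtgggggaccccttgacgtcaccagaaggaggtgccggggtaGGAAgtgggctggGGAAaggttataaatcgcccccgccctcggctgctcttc
The KDR sequence holds 1 GGAA, at position -164 from the start, while the FLT1 sequence holds 4, at -144, -128, -52 and -39. Among 35116 promoter windows of 300 bases (250 before and 50 after the start), 95.5% hold at least 1 such core on either strand, so its presence is common to nearly all genes. The median over these windows is 3 cores, and the whole windows of KDR and FLT1 hold 1 and 4. GGGCGG, the core of SP1 sites, occurs 2 times in the KDR sequence and 3 times in that of FLT1, and is found in 44.95% of windows. The RUNX letters TGTGGT occur once in the KDR window, 35 bases into the transcribed part, against 13.1% of all windows. The GATA letters, searched as AGATAA and as TGATAA, are in 16.3% of windows. The hypoxia response letters ACGTG are in 21.4%, and the SOX letters ACAATG are in 10.8%. None of these is found in the windows of VEGFB, VEGFC, PGF, KDR and FLT1. The absence of these letters from 300 bases says nothing about binding elsewhere.

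The depth of the libraries was recovered from the spacing of low values and was between 19700000 and 23600000 fragments. Intervals on levels and folds are 95% intervals from these fragments and cover counting error only, not the variation between cultures or sorts. Mitochondrial genes took 5.80% to 8.16% of the summed FPKM. Of the genes of the sorted proteins, APLNR (1073 FPKM in APLNR+ cells, 209 FPKM in CD31+CD34+ cells), CD34 (102 FPKM in CD31+CD34+ cells) and SPN (CD43, 92.4 FPKM in CD43+ cells) were highest in the population sorted for them. PECAM1 (CD31) was at 93.1 FPKM in CD31+CD34+ cells and higher, at 126 FPKM, in CD43+ cells. In such bulk libraries fewer cells of a type and less RNA per cell cannot be told apart.

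KDR, the main signalling receptor (chromosome 4, 55078477 to 55125589, GRCh38, minus strand), was the highest receptor in every library. Its level was 33.1 FPKM in BC1, 70.0 FPKM in APLNR+ cells, 569 FPKM in CD31+CD34+ cells and 38.0 FPKM in CD43+ cells. The peak in the HEPs, where KDR ranked 139th of 17137 genes, stood far above the other 3 libraries. The intervals on these levels did not overlap, with the closest pair being BC1 at 32.1 to 34.2 FPKM and CD43+ at 36.9 to 39.1 FPKM. KDR rose 2.11-fold from BC1 to APLNR+ (95% interval 2.03 to 2.20), 8.13-fold from APLNR+ to CD31+CD34+ (7.95 to 8.32) and then fell 15.0-fold to CD43+ (14.5 to 15.4). The CD43+ cells ended 1.15-fold above BC1 (1.10 to 1.20), so a gene known as a mark of vascular and blood-forming mesoderm had close to the same transcript level in the undifferentiated line and in the blood progenitors.

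FLT1, the receptor of VEGFA, VEGFB and PGF (chromosome 13, 28300344 to 28495145, minus strand), followed another course at the mesoderm stage. It had 21.7 FPKM in BC1, 9.65 FPKM in APLNR+ cells, 100.3 FPKM in CD31+CD34+ cells and 16.9 FPKM in CD43+ cells. It was thus lowest where KDR had begun to rise, and BC1 stood second. FLT1 fell 2.25-fold from BC1 to APLNR+ (1.97 to 2.56), rose 10.4-fold into the HEPs (9.30 to 11.6) and fell 5.95-fold into the HPCs (5.46 to 6.50). FLT1 also makes soluble forms that bind ligand without signalling, and the gene-level values do not separate them from the full receptor. Its 9 annotated coding transcripts run from short forms to one of 7092 bases, with a median of 1927 bases, which makes its fragment numbers the least certain of the 3 receptors.

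FLT4, the receptor of VEGFC and VEGFD (chromosome 5, 180601506 to 180649624, minus strand), changed most. Its level was 7.34 FPKM in BC1, 4.91 FPKM in APLNR+ cells, 193 FPKM in CD31+CD34+ cells and 6.36 FPKM in CD43+ cells. Outside the HEPs its levels stayed within a narrow band, and the level in CD43+ cells was 1.15-fold below that of BC1 (1.02 to 1.30). The ratio of 1.497 between BC1 and APLNR+ (1.32 to 1.71) was under the 2-fold limit used for a change. FLT4 rose 39.4-fold from APLNR+ to CD31+CD34+ (35.7 to 43.6) and fell 30.4-fold to CD43+ (27.9 to 33.2). On the log2(FPKM + 1) scale its rise into the HEPs was the 53rd largest of 17137 genes and its fall out of them the 34th largest.

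**Figure D1:**
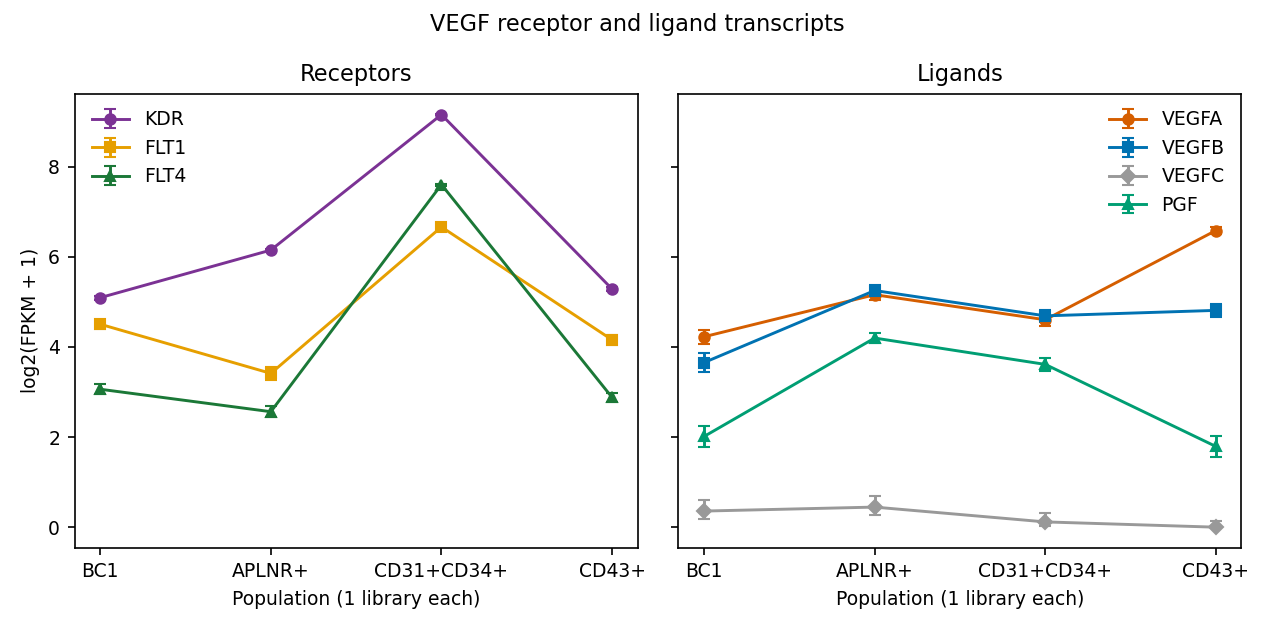
Level of each receptor (left) and ligand (right) as log2(FPKM + 1) in the 4 populations, 1 library each; bars are 95% intervals from counting and are often smaller than the symbols. All 3 receptors peak in CD31+CD34+ cells (KDR at 569 FPKM), whereas VEGFA is highest in CD43+ cells (94.9 FPKM) and VEGFC lies near 0 throughout.

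Among the ligands, VEGFA (chromosome 6, 43770184 to 43786487, plus strand) had 17.7 FPKM in BC1, 34.7 FPKM in APLNR+ cells, 23.3 FPKM in CD31+CD34+ cells and 94.9 FPKM in CD43+ cells. The CD43+ level was the highest of any member in that library and ranked 968th of 17137 genes. From BC1 to APLNR+ the ratio was 1.96 (1.71 to 2.26), just under the limit for a change, and from APLNR+ to CD31+CD34+ the level was 1.49-fold lower (1.32 to 1.69). VEGFA then rose 4.07-fold into the CD43+ cells (3.67 to 4.53), which put it 5.36-fold above BC1 (4.73 to 6.09). Its splice forms, which differ in how they bind the matrix and the coreceptors, are summed in these values. An antisense gene, AL136131.3, shares 188 bases (1.30%) of its exonic sequence and was listed at 0 in every library.

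VEGFB (chromosome 11, 64234538 to 64238793, plus strand) binds FLT1 and is known mainly from heart and muscle. It had 11.6 FPKM in BC1, 37.1 FPKM in APLNR+ cells, 24.8 FPKM in CD31+CD34+ cells and 27.1 FPKM in CD43+ cells. BC1 stood below the other 3, and the levels of CD31+CD34+ and CD43+ cells differed by a ratio of 1.09 whose interval, 0.949 to 1.25, includes 1. VEGFB rose 3.20-fold from BC1 to APLNR+ (2.68 to 3.82).

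PGF, placental growth factor (chromosome 14, 74941834 to 74955784, minus strand), is also a ligand of FLT1. Its level was 3.03 FPKM in BC1, 17.3 FPKM in APLNR+ cells, 11.2 FPKM in CD31+CD34+ cells and 2.46 FPKM in CD43+ cells. The middle populations were high and the outer ones low, and the ratio of 1.23 between BC1 and CD43+ had an interval of 0.895 to 1.71. PGF rose 5.71-fold into APLNR+ cells (4.54 to 7.26) and fell 4.56-fold from CD31+CD34+ to CD43+ cells (3.56 to 5.94).

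VEGFC (chromosome 4, 176683538 to 176792727, minus strand), the lymphatic growth factor that binds FLT4, had 0.281 FPKM in BC1, 0.362 FPKM in APLNR+ cells and 0.0846 FPKM in CD31+CD34+ cells, and was listed at 0 in CD43+ cells. These values stand for about 10, 14, 4 and 0 fragments, and the floor of 3 fragments is 0.0780 FPKM in CD43+ cells. The 95% upper limit for the count of 0 there was 0.0959 FPKM. The level in CD31+CD34+ cells was 4.28-fold below that of APLNR+ cells (1.20 to 16.0), a wide interval that reflects the few fragments. VEGFD, the other ligand of FLT4, had at most 0.138 FPKM in the 4 libraries. FLT4 was therefore high in HEPs while transcripts of both its ligands were at or near the limit of detection in the same cells.

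Counted together, 3 members rose by at least 1 on the log2(FPKM + 1) scale from BC1 to APLNR+ (VEGFB, PGF and KDR), where 9.15% of all genes rose, and 1 fell (FLT1), where 9.32% fell. From APLNR+ to CD31+CD34+, the 3 receptors rose and no member fell, against 13.0% and 11.4% of all genes. With a pseudocount of 0.1 VEGFC fell at this step, and with a 1.5-fold limit PGF did. From CD31+CD34+ to CD43+, VEGFA rose and 4 members fell (PGF, KDR, FLT1 and FLT4), against 7.63% and 13.5%. The median change over the 7 members was 0.93, -0.33 and -1.82 at the 3 steps, and that over all genes tested was 0.00, 0.01 and -0.08. The middle value of the second step is the change of VEGFC itself, which did not pass the filter, with the 3 receptors above it and the other ligands below it. At the first step KDR (1.06) and FLT1 (-1.09) lay just past the limit and VEGFA (0.93) just under it.

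**Figure D2:**
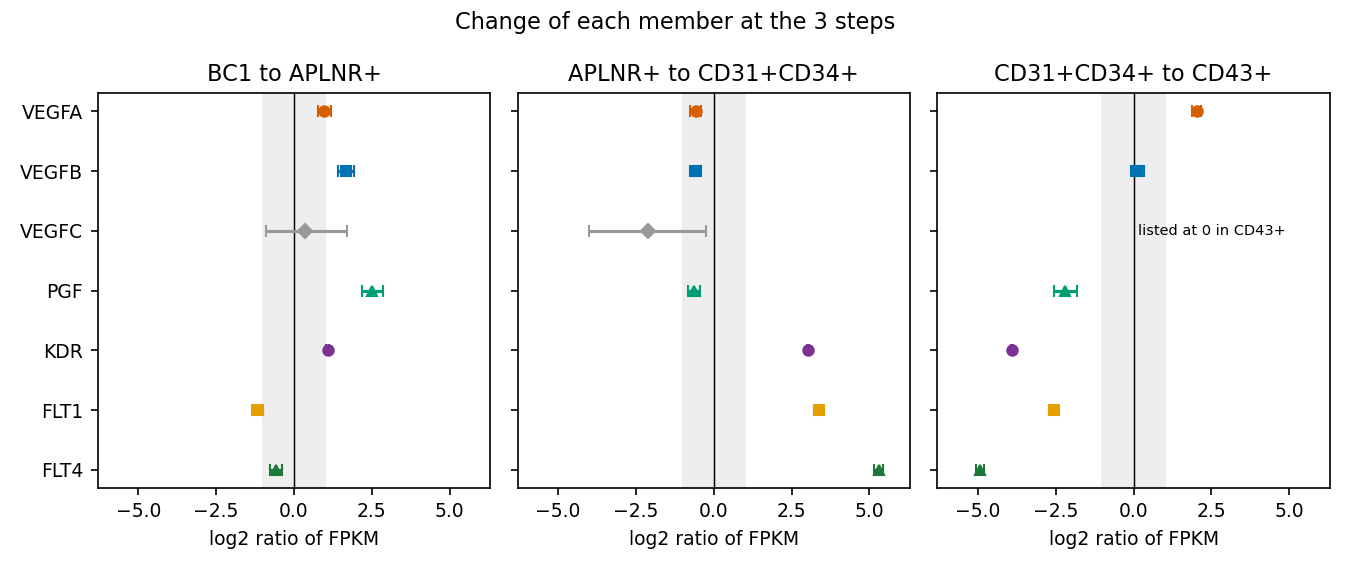
Ratio of FPKM between consecutive populations for each member on a log2 axis, with 95% intervals from counting; the grey band marks less than a 2-fold difference. The receptors lie far right of 0 at the second step (FLT4 at 39.4-fold) and far left at the third, where VEGFA lies on the right (4.07-fold).

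**Figure D3:**
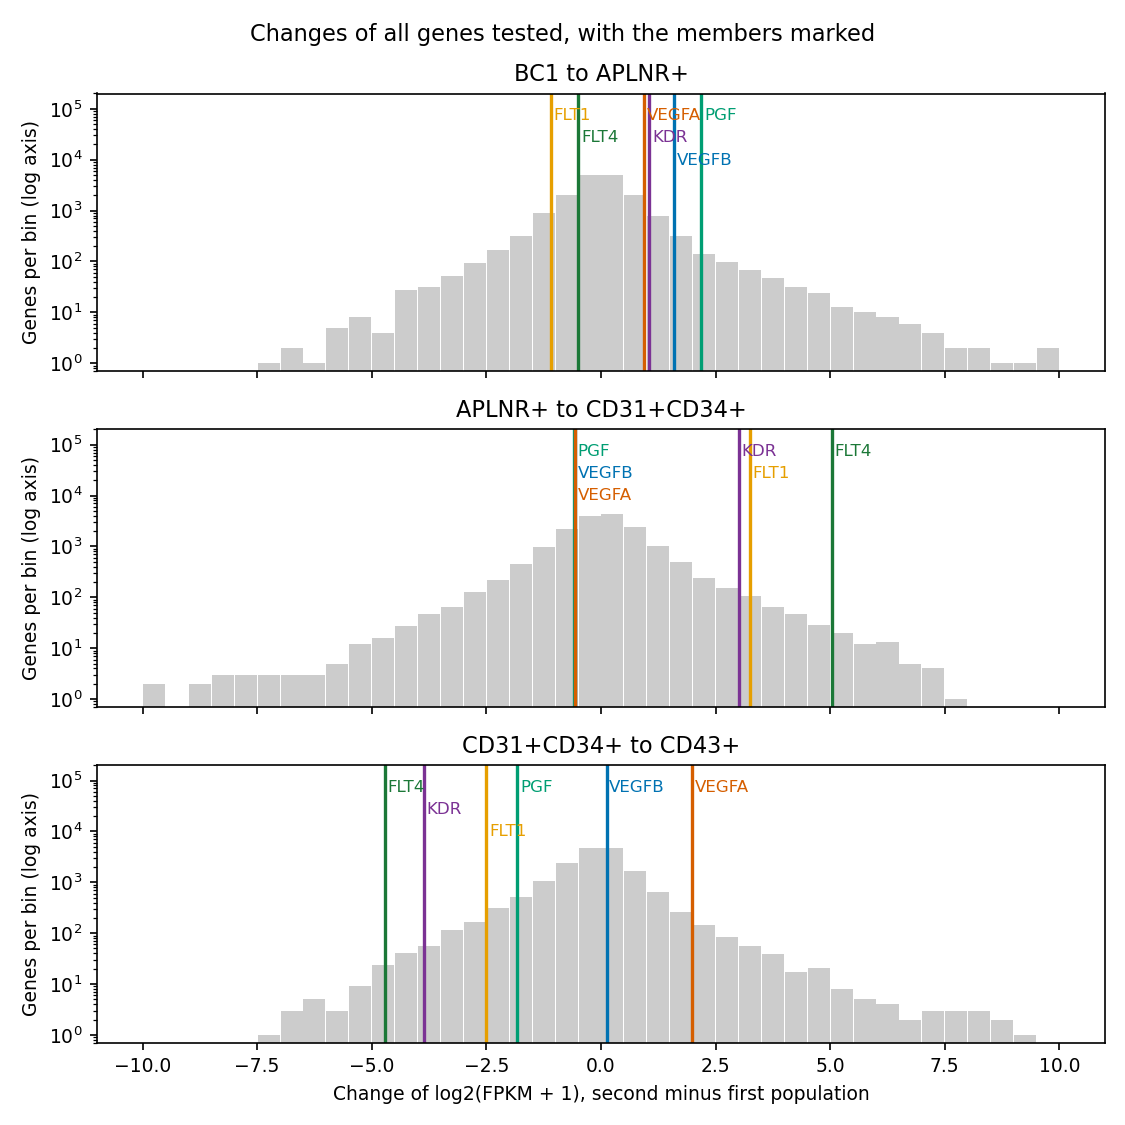
Histograms of the change in log2(FPKM + 1) of 17137 genes at each step, in bins of 0.5 with a log axis for the number of genes; coloured lines mark the 6 members that passed the filter, and changes beyond 10 are drawn in the outermost bins. The receptors sit in the right tail at the second step (3.01 to 5.04) and in the left tail at the third (-4.72 to -2.50).

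The make-up of the receptors and of the ligands was compared within each library, which does not depend on how libraries are scaled against each other. KDR made up 53.3% of the summed receptor FPKM in BC1, 82.8% in APLNR+ cells, 66.0% in CD31+CD34+ cells and 62.1% in CD43+ cells. FLT1 made up 34.9%, 11.4%, 11.6% and 27.5% in the same order, and FLT4 11.8%, 5.81%, 22.4% and 10.4%. KDR was thus most dominant in mesoderm, where its level was 7.25 times that of FLT1, against 1.53 times in BC1. The order of FLT1 and FLT4 turned in the HEPs, which were the one population with more FLT4 than FLT1 (FLT1 to FLT4 ratio 0.518, and 1.97 to 2.95 in the other libraries).

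Among the ligands, VEGFA held 54.3% of the summed FPKM in BC1, 38.8% in APLNR+ cells, 39.2% in CD31+CD34+ cells and 76.3% in CD43+ cells. VEGFB had a slightly larger share than VEGFA in APLNR+ (41.4%) and CD31+CD34+ cells (41.7%), but the counting intervals of both genes overlapped in those libraries. PGF reached 19.4% and 18.9% there and 1.98% in CD43+ cells. The summed receptor FPKM was 62.2, 84.5, 863 and 61.2 in the order of differentiation, and the summed ligand FPKM was 32.6, 89.5, 59.4 and 124. Receptor transcripts per ligand transcript therefore went from 1.91 in BC1 and 0.944 in APLNR+ cells to 14.5 in the HEPs and 0.492 in the HPCs.

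**Figure D4:**
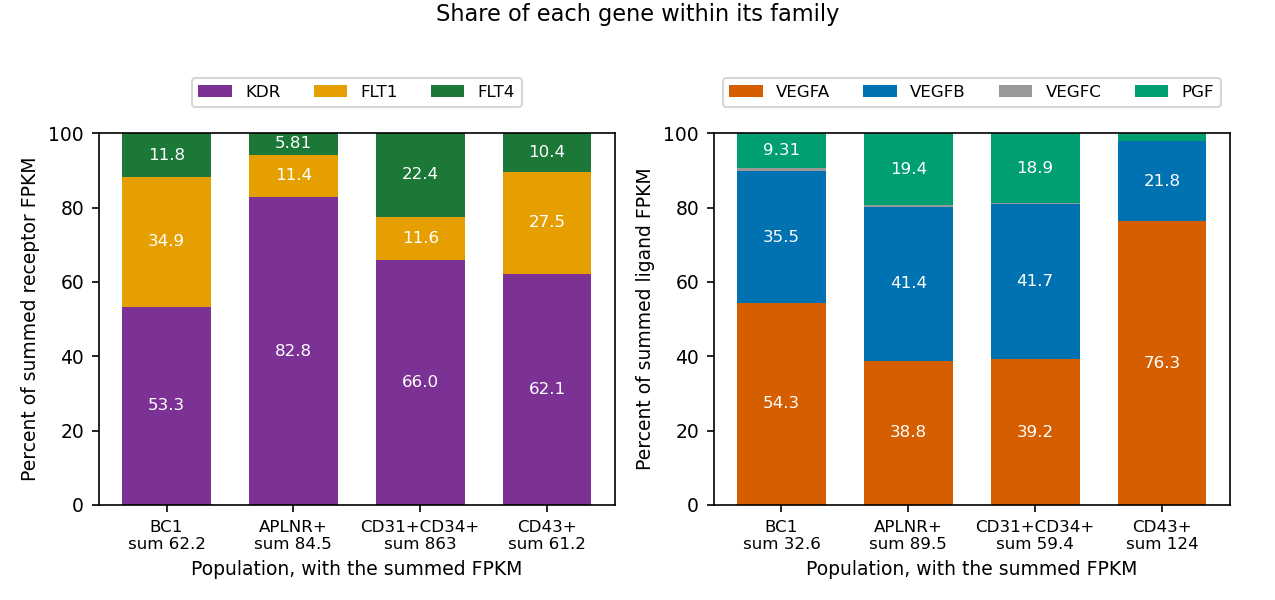
Percent of the summed receptor FPKM (left) and ligand FPKM (right) held by each gene in the 4 populations, with the sums under the bars. KDR holds the largest receptor share in every library (82.8% in APLNR+ cells) and VEGFA holds 76.3% of the ligand sum in CD43+ cells.

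The neuropilins NRP1 and NRP2 are coreceptors that bind VEGF isoforms and strengthen signalling through KDR and FLT4. NRP1 was at 0.374, 21.1, 43.8 and 2.62 FPKM in BC1, APLNR+, CD31+CD34+ and CD43+ cells, and NRP2 was at 11.4, 120, 256 and 22.9 FPKM. Both already stood high in mesoderm, at 48.2% and 47.1% of their HEP level, while KDR was at 12.3%, FLT1 at 9.62% and FLT4 at 2.54% of theirs. Both rose at the first step by 56.5-fold (34.2 to 94.9) and 10.5-fold (9.68 to 11.5) and fell at the third by 16.7-fold (14.0 to 20.1) and 11.2-fold (10.5 to 11.8).

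VEGFC is made as a precursor that CCBE1 and the protease ADAMTS3 help to mature, after cleavage by FURIN-type proteases. CCBE1 fell from 2.42 FPKM in BC1 to 0.359 FPKM in APLNR+ cells and was at 0.183 and 0.00813 FPKM in the later populations. ADAMTS3 rose from 0.987 to 6.16 FPKM and was then at 2.86 and 1.95 FPKM. FURIN, which cleaves many precursors besides VEGFC, rose at both of the first steps, from 18.7 to 48.7 and 184 FPKM, and fell to 79.6 FPKM in CD43+ cells. Of the 6 genes of this group, 3 rose (with PCSK7, from 15.1 to 35.2 FPKM) and 3 fell at the first step. At the second step 1 rose, and at the third 1 fell. For this list and those below, the shares of all genes tested were 9.15% risen and 9.32% fallen at the first step. They were 13.0% and 11.4% at the second step, and 7.63% and 13.5% at the third.

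Of 10 receptor partners and phosphatases, none changed at the first step, 5 rose at the second, and 3 rose and 4 fell at the third. CDH5 (VE-cadherin), the junction protein that holds KDR at cell contacts, was at 0.523, 0.663, 224 and 9.38 FPKM, and rose with the receptors in the HEPs. PTPRB, the endothelial phosphatase that limits KDR activity, was at 0.275, 0.170, 7.07 and 0.571 FPKM and had the same shape. ITGB3, an integrin chain that partners KDR on endothelium and is also a platelet receptor chain, instead went on from 6.68 FPKM in the HEPs to 501 FPKM in the HPCs. PTPN6, a phosphatase of blood cells, rose from 13.7 to 115 FPKM and PTPRJ from 2.33 to 10.9 FPKM at this step, while ITGB1 fell from 293 to 90.8 FPKM.

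All 36 signal transducers that were listed passed the filter, and most kept within 2-fold at each step. At the first step 6 rose and 1 fell, at the second 8 and 2, and at the third 4 and 6. Their median changes were 0.37, 0.41 and -0.31. Over all genes tested, the shares risen and fallen were 9.15% and 9.32%, 13.0% and 11.4%, and 7.63% and 13.5%. At the first step SRC (17.3 to 104 FPKM), the adaptor SHB (6.86 to 30.3 FPKM) and the kinase AKT1 (47.1 to 167 FPKM) rose most. NOS3, the endothelial nitric oxide synthase that acts downstream of KDR, was at 5.06, 8.16, 93.7 and 2.87 FPKM and had the largest rise of the list at the second step and the largest fall at the third. FYN (30.2 to 306 FPKM) and the adaptor SHC2 (2.74 to 22.4 FPKM) also rose into the HEPs, where SHB (30.3 to 7.78 FPKM) and PIK3R1 (9.63 to 3.86 FPKM) fell. In the HPCs the adhesion adaptor PXN fell from 143 to 8.56 FPKM and SHB to 1.98 FPKM, while PIK3CB rose from 26.4 to 140 FPKM, PRKCA from 2.22 to 7.79 FPKM and PLCG2, the blood cell form of the phospholipase, from 3.35 to 8.08 FPKM. PLCG1, the form that KDR recruits, fell from 112 to 51.9 FPKM.

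Genes known to respond to VEGF in endothelium did not move as 1 group. Of 30 listed, 25 passed the filter, and 6 rose and 1 fell at the first step, 5 rose and 7 fell at the second, and 6 rose and 11 fell at the third. The median changes were 0.67, -0.09 and -0.91. Before VEGF was given, in APLNR+ cells, BMP2 rose from 0.912 to 287 FPKM, HLX from 0.391 to 34.6 FPKM and ANGPT2 from 0.0427 to 5.63 FPKM, and DUSP6 fell from 71.1 to 6.64 FPKM. The same 3 genes fell into the HEPs, to 1.25, 4.32 and 0.633 FPKM. In the HEPs the flow-responsive factor KLF2 rose from 0.796 to 51.4 FPKM, the Notch ligand DLL4 from 0.420 to 18.0 FPKM and APLN, a marker of sprouting endothelium, from 0.174 to 7.92 FPKM. At the third step the feedback inhibitor SPRY4 fell from 22.6 to 0.575 FPKM, the protease PLAU from 20.9 to 1.14 FPKM and the guidance receptor UNC5B from 17.7 to 0.925 FPKM. The immediate early genes EGR1 (34.6 to 239 FPKM) and EGR3 (0.0891 to 6.88 FPKM) and KLF4 (1.19 to 8.72 FPKM) rose in the HPCs, and these respond to many stimuli besides VEGF.

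VEGFA is a classical target of the hypoxia-inducible factors, so the genes of this system were read beside its rise in CD43+ cells. HIF1A was at 50.9, 37.3, 50.1 and 29.1 FPKM and changed by less than 2-fold at each step. EPAS1 (HIF2A), the form of endothelium, was at 2.14, 0.403, 6.75 and 1.42 FPKM, and HIF3A fell from 34.6 to 4.83 FPKM at the third step. Transcript levels of these factors say little about their activity, which is set mainly by protein stability. Of 20 hypoxia targets, 19 passed the filter, and 6 rose and 2 fell at the first step, 4 rose and 3 fell at the second, and 7 rose and 2 fell at the third, with median changes of 0.43, -0.11 and 0.45. At the third step, beside VEGFA, PFKFB4 rose from 8.92 to 46.9 FPKM, ADM from 1.32 to 6.21 FPKM and EGLN3 from 3.93 to 13.7 FPKM, while NDRG1 fell from 27.2 to 6.92 FPKM and P4HA2 from 21.4 to 6.19 FPKM. The earlier steps moved other targets, with CA12 (1.49 to 35.1 FPKM) and BHLHE40 (0.680 to 21.0 FPKM) rising into mesoderm, where EGLN3 (7.81 to 51.2 FPKM) rose as well, and ADM (52.7 to 1.70 FPKM) and SLC2A1 (260.0 to 70.0 FPKM) falling. In the HEPs CA12 fell to 0.451 FPKM, BHLHE40 to 3.81 FPKM and EGLN3 to 3.93 FPKM, and NDRG1 (from 3.29 FPKM), DDIT4 (11.6 to 46.5 FPKM) and P4HA2 (from 9.82 FPKM) rose.

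The 20 listed regulators of endothelial and blood genes, several of which act on KDR, FLT1 or FLT4, all passed the filter. At the first step 9 rose and 1 fell, at the second 14 rose and 1 fell, and at the third 3 rose and 12 fell, with median changes of 0.70, 3.20 and -1.20. GATA2 (0.126 to 32.0 FPKM), FOXC1 (0.0416 to 24.1 FPKM) and SOX17 (0.171 to 16.6 FPKM) rose in mesoderm, where RBPJ fell from 59.6 to 27.9 FPKM. With the receptors, the ETS factor FLI1 (2.95 to 316 FPKM), LMO2 (0.459 to 107 FPKM) and TAL1 (0.0608 to 71.2 FPKM) rose in the HEPs and FOXC1 fell to 6.23 FPKM. ETV2, an ETS factor of vascular mesoderm, was at 1.10, 1.35, 2.64 and 1.48 FPKM and did not pass the limit at any step. No library lies between day 2 and day 5, so a short rise of ETV2 between them could be missed. The regulators parted in the HPCs: SOX7 (84.5 to 0.917 FPKM), ERG (75.1 to 5.68 FPKM) and SOX17 (11.8 to 0.157 FPKM) fell as the receptors did, while GATA1 (13.4 to 190 FPKM), MEF2C (29.2 to 159 FPKM) and TAL1 (to 184 FPKM) rose further. FLI1, at 367 FPKM in the HPCs, did not fall with the receptors.

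**Figure D5:**
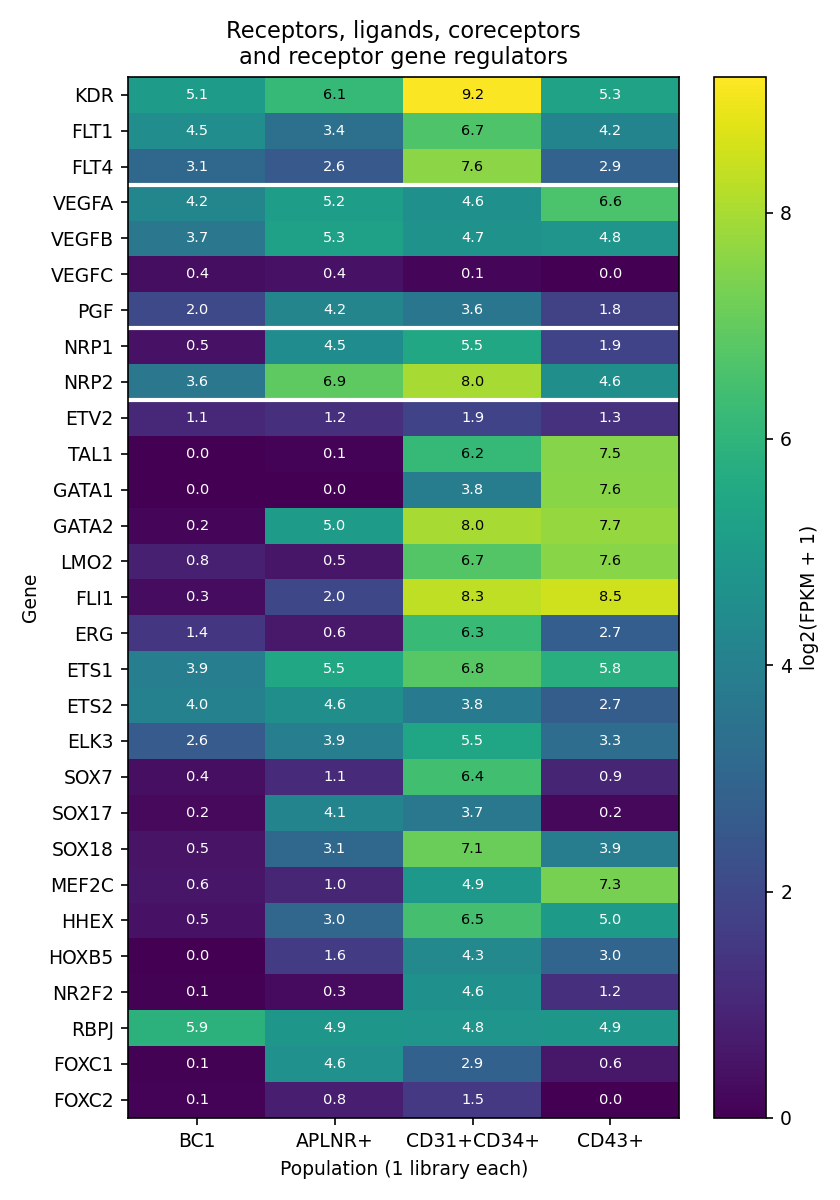
Levels as log2(FPKM + 1), printed in each cell, of the 3 receptors, 4 ligands, 2 coreceptors and 20 regulators (blocks from top to bottom) in the 4 populations. The receptors, coreceptors, ERG, SOX7 and SOX18 are much lower in CD43+ cells than in CD31+CD34+ cells, whereas FLI1, TAL1, LMO2 and GATA2 stay high.

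Markers of other cell types were read beside the receptors. The 8 endothelial markers summed to 19.3, 6.05, 737 and 181 FPKM, with EMCN at 0 in BC1. At the first step, where FLT1 fell, 3 of them fell (TIE1, TEK and ECSCR) and none rose, while 7 rose at the HEP step and 6 fell at the next. In CD43+ cells KDR was at 6.68%, FLT1 at 16.8% and FLT4 at 3.29% of the HEP level, while the endothelial markers ranged from 4.18% (CDH5) to 127% (EMCN). In BC1 KDR was at 5.82%, FLT1 at 21.6% and FLT4 at 3.798% of the HEP level, and the endothelial markers ranged from 0% (EMCN) to 26.4% (CLDN5), with CDH5 at 0.233% and TEK at 9.86%. The 8 hematopoietic markers summed to 14.1, 8.67, 225 and 7244 FPKM, with GATA1 and TAL1 at 0 in BC1, and all 8 rose at each of the last 2 steps. The 9 smooth muscle and mesenchyme markers summed to 186, 215, 530 and 85.5 FPKM, with DCN at 0 in both late libraries. At the second step 4 of the 6 that passed the filter rose and none fell, against 13.0% and 11.4% of all genes tested. COL1A1 (183.7 FPKM) and COL1A2 (207.2 FPKM) made up most of the sum in CD31+CD34+ cells. TAGLN was lower there than in APLNR+ cells, by less than the limit (117.1 to 74.68 FPKM). The 6 monocyte and macrophage markers summed to 20.8, 11.8, 26.7 and 168 FPKM, with FCGR3A at 0 in both late libraries. At the third step 3 of the 5 that passed the filter rose (CSF1R, CD68 and AIF1) and none fell, against 7.63% and 13.5% of all genes tested. LYZ rose by less than the limit (6.89 to 12.7 FPKM). CD14, low in both late libraries, moved the other way, also by less than the limit (0.587 to 0.0339 FPKM). The 7 endoderm markers summed to 27.6, 64.9, 22.3 and 5.75 FPKM and the 5 pluripotency markers to 2976, 958.5, 76.5 and 78.9 FPKM, with SOX2 at 0 in both late libraries. DNMT3B made up most of the late pluripotency sums, at 74.05 FPKM in CD31+CD34+ cells and 78.67 FPKM in CD43+ cells. In the same order POU5F1 was at 1.866 and 0.2351 FPKM, TDGF1 at 0.559 and 0 FPKM, and NANOG at 0.03455 and 0.00945 FPKM. The part of these cell types in the changes of VEGFA and of the receptors was not tested.

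Since FLT4 and NRP2 are also known from lymphatic vessels, 8 lymphatic markers were read with them, of which 7 passed the filter, with 3 rising and 1 falling at the first step, 3 and 1 at the second, and 2 and 5 at the third. PROX1, the factor that sets lymphatic fate, was at 0.506, 0.981, 5.17 and 1.49 FPKM, and rose 5.27-fold into the HEPs (4.30 to 6.48). SOX18 was at 0.411, 7.45, 140 and 14.1 FPKM, and the integrin chain ITGA9 at 1.58, 27.7, 47.9 and 2.72 FPKM. LYVE1, the hyaluronan receptor of lymphatic endothelium, had 0.128 FPKM in the HEPs and 2.14 FPKM in the HPCs, CCL21 had at most 0.132 FPKM, and PDPN fell from 43.7 to 8.54, 3.69 and 0.262 FPKM. The rise of FLT4 into the HEPs was therefore accompanied by PROX1, SOX18 and NRP2, and by a rise of ITGA9 under the limit. It was not accompanied by LYVE1, CCL21, PDPN or RELN. RELN was at 0.361 FPKM in the HEPs and 3.685 FPKM in the HPCs.

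KDR, FLT1 and FLT4 are related to the receptor kinases of the PDGF, KIT and CSF1 ligands, and 12 genes of those receptors and ligands were read as well. Of these 11 passed the filter, and 1 rose and 4 fell at the first step, 6 rose and 1 fell at the second, and 3 rose and 4 fell at the third, with median changes of -0.57, 1.12 and -0.83. PDGFRA, a receptor of mesoderm and mesenchyme, was at 1.37, 14.3, 4.96 and 0.151 FPKM, highest in APLNR+ cells, and PDGFRB fell from 6.69 to 2.56 FPKM at the third step. KIT, the receptor of stem cell factor, was at 5.55, 1.59, 7.79 and 6.65 FPKM, falling into mesoderm as FLT1 did and rising into the HEPs, but without a fall into the HPCs. The ligand gene PDGFA fell from 14.6 to 0.310 FPKM at the first step. In the HPCs PDGFC (4.18 to 15.1 FPKM), PDGFB (3.33 to 9.59 FPKM) and the macrophage receptor CSF1R (0.759 to 8.80 FPKM) rose beside VEGFA.

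The genes whose pattern was closest to each member were found among 11034 protein-coding genes with at least 5 FPKM in some library, by the root mean squared difference of centred log2(FPKM + 1) values over the 4 libraries. For KDR these were MAF (difference 0.24), EFNA1, SHE, SP6 and NOS3. For FLT1 they were FAM124B (0.12), CCDC80, TPD52L1, NOTCH1 and AKR1C3, of which NOTCH1 was at 22.7, 13.8, 128 and 24.4 FPKM. For FLT4 they were TFPI2 (0.16), GDPD5, ADCY4, SMTNL1 and ADGRL4, with TFPI2 at 7.09, 3.65, 140 and 5.49 FPKM. The same measure between the receptors was 0.75 for KDR and FLT4, 0.90 for KDR and FLT1 and 0.95 for FLT1 and FLT4. The listed genes lay within 0.331 of KDR, 0.195 of FLT1 and 0.252 of FLT4. With these distances the 3 sets could not overlap, so their lack of a shared gene is no result.

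For VEGFA the closest were C3orf58 (0.06), KLF4, GNAQ, TANGO2 and OSBPL6, which also rose most in CD43+ cells, as GNAQ did from 33.6 to 129 FPKM. For VEGFB they were MYADM (0.03), PLEKHA7, SNAPC3, METRN and RTL5, and for PGF they were KCNMB4 (0.18), HVCN1, RILPL1, ALDH2 and SMAD9. VEGFC varied so little on this scale that its closest genes, SLC35C1 (0.02), DERL2, AP5M1, CDK8 and GPN3, are genes that hardly changed. With 4 points per gene, such likeness is a description only.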

How the data were processed

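RNA sequencing libraries were made by the submitters from total RNA with an Illumina TruSeq kit, 1 for each population. The authors deposited gene-level FPKM values, and the unit was taken from the values and an axis label in the study's plots. The submitters' processing notes name BWA, Bowtie, RSEM and hg19, without roles or versions, and whether strand was used is not given in the sources used here. The loci in the table are those of GRCh38 instead: 58011 of 58274 identifiers (99.5%) were found in GENCODE 29, and 55570 had its version and position, so coordinates are given on GRCh38. Rows of 1 identifier were summed (90 identifiers).

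Fragments per library were fitted from the steps between low values, of which 92.0% to 93.9% came out whole, and a method check on simulated data was run. Gene fragments used the median length of coding transcripts. Fold intervals are exact Clopper-Pearson 95% intervals, and 3 fragments were the floor. A change was at least 1 on the log2(FPKM + 1) scale, a pseudocount that understates changes of low genes. With 1 library per population no test was run.

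The members and the gene lists were chosen with earlier results of these data known. From each list, up to 3 genes per direction and step whose higher value was at least 5 FPKM are named, together with genes tied directly to a member. The 5 closest genes per member are named. PLCG1, TIE1, TEK, ECSCR, CLDN5, EMCN, CCL21, FLI1 in CD43+ cells and the sorted markers were named after their values were seen. So were RELN, CD14, CD68, AIF1, LYZ, COL1A1, COL1A2, TAGLN and the pluripotency markers. Proteins were not analysed here. Python 3.11.15, numpy 2.4.6, pandas 2.3.3 and scipy 1.17.1 were used.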

Additional observations from a re-analysis of the deposited data

How the results depend on the processing

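With a limit of 2 in place of 1 on the log2 scale, 1 member changed from BC1 to APLNR+ (PGF) in place of 4, and 3 changed from CD31+CD34+ to CD43+ (the receptors) in place of 5. The number from APLNR+ to CD31+CD34+ was 3 under this limit too. Under the other alternatives (pseudocounts of 0.1 and 0.5, a limit of 1.5-fold, both rescalings, and the largest row of each identifier) the total of changed members stayed within 1.5 times the main one, but at the second step 1 member fell, in place of 0, with a pseudocount of 0.1 and with a limit of 1.5-fold. No member's fold changed direction. List medians near 0 changed sign 3 times: that of the VEGFC processing genes at the first step with a pseudocount of 0.1 (-0.32 against 0.07), and the mean against the median of this list (0.03 against -0.12) and of the hypoxia regulators (-0.01 against 0.20) at the second step. With a pseudocount of 0.1, 7 of 30 list medians moved, all away from 0: at the first step coreceptors (4.43), regulators (1.53), lymphatic markers (1.28) and related kinases (-1.10), and at the third VEGFC processing (-1.01), response genes (-1.77) and lymphatic markers (-3.30). The mean in place of the median moved 3, namely regulators (1.27) and lymphatic markers (1.11) at the first step and receptor partners (1.61) at the second. Rescaling moved the fold of KDR beyond its counting interval, to 7.94 for the rise into HEPs under median ratio scaling, and that of the fall into HPCs as well. At the third step the median change of all genes was -0.08 as deposited, -0.17 with the same total in every library and 0.00 with median ratio scaling. Without a filter the share of all genes that changed was 5.43%, 7.18% and 6.23%, against 18.5%, 24.4% and 21.2%. A pseudocount of 0.1 left 1 of the 5 genes closest to KDR, 2 each for FLT1 and FLT4, 3 each for VEGFA and PGF and 0 for VEGFC. No paired analysis was possible because each population had 1 library and no result comes from a test.

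Differences between cultures, sorts and lines cannot be judged from these libraries, and the intervals do not cover them. Sort, day and medium changed together. Depth limits VEGFC and VEGFD, which rest on at most about 14 fragments. Splice forms, soluble FLT1 and protein levels were not measured.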
